A study of Homo sapiens with 6 samples.

Results

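Solute carriers are membrane proteins that move amino acids, sugars, nucleosides, ions and many other small molecules across the plasma membrane and the membranes of organelles. Most are coupled to ion gradients or exchange a substrate for another, and their amounts at the surface set which nutrients a cell can take up. Hepatic stellate cells, the liver cells that produce scar matrix once activated, depend on such uptake because matrix synthesis consumes amino acids. The genes described here are all rows of the deposited table whose symbol starts with SLC and a digit or with SLCO, apart from SLC7A11 and SLC3A2. There were 21 of them among the 937 genes of the table. They were grouped by substrate into amino acids and their derivatives (7 genes), ions (5), nucleosides (1) and other substrates (8), and none belonged to the sugar carriers. RefSeq lists 398 protein-coding genes under these symbols, of which 72 fall into the amino acid class, 100 into ions, 19 into nucleosides, 45 into sugars and 162 into other substrates.

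The cells were LX-2, an established human hepatic stellate cell line, so all libraries come from a single line grown without the other cells of the liver. The ALB group had TGF-β1 (20 ng/mL, 24 h) followed by albiflorin, a monoterpene glycoside of peony root, for 24 h. The TGF-β1 group had the same TGF-β1 exposure and no albiflorin. Both groups therefore carry the cytokine, cells without it were not analysed here, and the albiflorin dose of the sequenced cells is not given in the sources used here. The study's methods do not say whether the TGF-β1 group was kept for the further 24 h. The time from TGF-β1 to harvest may therefore differ between the groups. There were 3 libraries per group. The study describes its data in general as coming from independent experiments, but does not say whether this covers the sequenced libraries or whether each was a separate culture. The p-values therefore cover only the spread among libraries, part or all of which may be technical. The sample labels call the TGF-β1 group a control and name hepatocytes beside the stellate line.

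The table holds genes that the authors had already called as changed on these same 6 libraries. Each test below thus repeats their selection and is not independent evidence, and solute carriers outside the table were not analysed here. Values are FPKM (fragments per kilobase of transcript and per 1e6 mapped fragments, as deposited) for levels, and log2 fold changes of ALB over TGF-β1 for differences, fitted on the deposited counts with edgeR's quasi-likelihood test and adjusted over all 937 genes by the Benjamini-Hochberg method (threshold 0.05), with the standard error abbreviated as SE. Estimated depths were 35800000 to 41600000 fragments per ALB library and 33800000 to 38100000 per TGF-β1 library. Of the marker genes listed for a check of the cell type, the table held 5 of 14 stellate cell genes (4 lower, 1 higher with ALB, summing to 103 to 194.5 FPKM in ALB and 247 to 422 FPKM in TGF-β1) and 0 of 10 hepatocyte genes. It held 4 of 8 epithelial genes, all lower, with a summed level of 122 to 160 FPKM in the ALB libraries and 289.9 to 296 FPKM in the TGF-β1 libraries. It also held 2 of 6 endothelial genes, both lower (0.821 to 1.03 FPKM in ALB, 1.64 to 2.12 FPKM in TGF-β1), and 1 of 8 leukocyte genes, higher (0.262 to 0.610 FPKM in ALB, 0.142 to 0.199 FPKM in TGF-β1). With TMM factors computed from the table, the other scaling used below, 3 stellate cell genes, 2 epithelial genes and 0 endothelial genes passed as lower, and TAGLN, KRT7, KRT8, PECAM1 and TEK did not pass. Across all 937 genes 42.5% were called higher and 56.9% lower (42.7% and 36.1% with TMM factors). The marker counts were not tested against these shares. The part of these marker genes in the results below was not tested. In RNA from a whole culture, fewer cells of a type and less RNA per cell cannot be told apart.

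Of the 21 solute carrier genes, 13 rose and 8 fell with ALB. Across all 937 genes 42.5% were called higher and 56.9% lower, so that nearly every gene was called in this table selected for change. The median log2 fold change of the 21 genes was 1.22, against -0.97 for all 937 genes. Because the table keeps genes with a large fold change, each median mainly follows which direction holds more genes. Whether the direction differs between substrate classes was not tested. Amino acid carriers were split, with 4 higher and 3 lower. Among ion carriers 2 were higher and 3 lower, and the only nucleoside carrier was lower. Of the 8 carriers of other substrates 7 were higher. Log2 fold changes ran from -3.66 for SLC28A3 to 2.42 for SLC47A1, and 4 of the 21 genes differed over 4-fold (SLC28A3 and SLC38A5 lower, SLC16A14 and SLC47A1 higher). In 20 of 21 genes the FPKM values of the groups did not overlap, beside 95.5% of all genes of the table. In those 20 genes a two-sided exact permutation test of FPKM gave p = 0.1, the smallest that 3 libraries against 3 allow, and for SLC30A3 it gave p = 0.2.

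**Figure D1:**
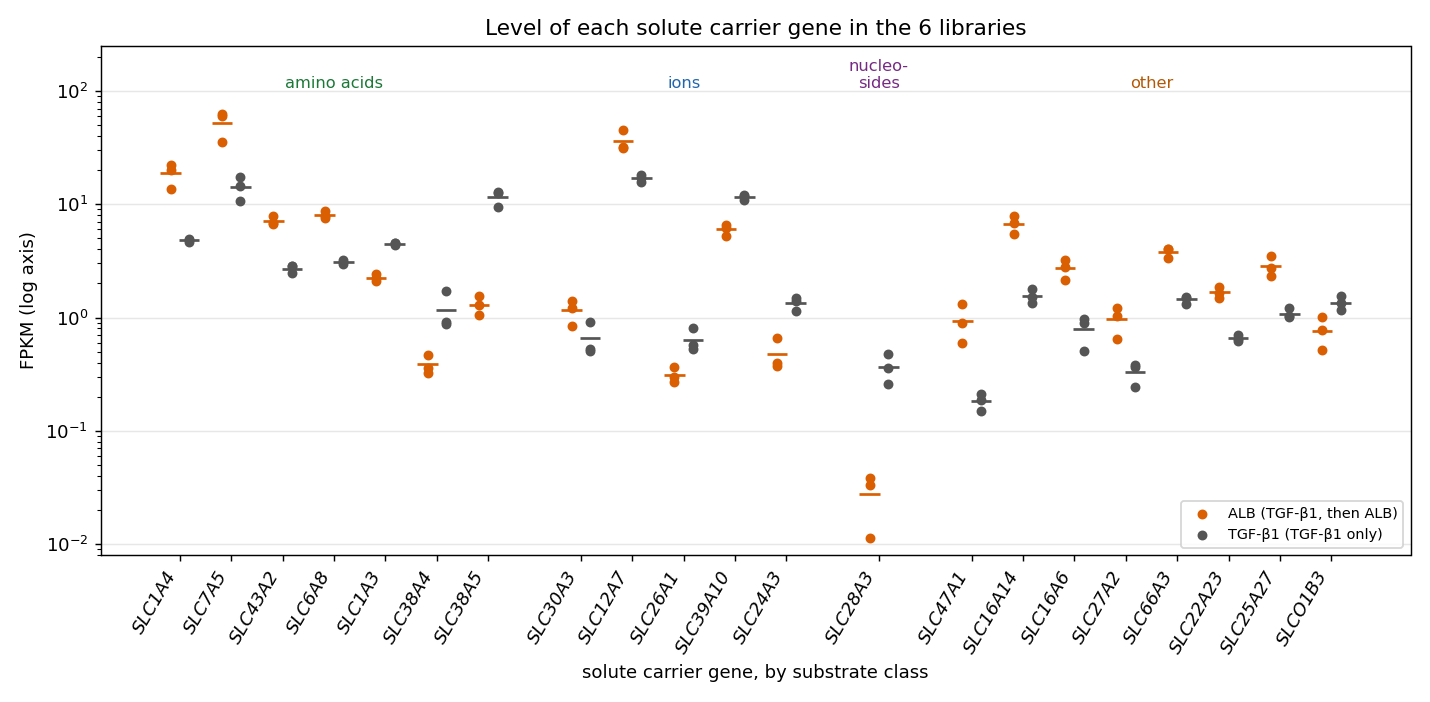
Level of each of the 21 solute carrier genes in FPKM (log axis) in the 3 ALB libraries (orange, left of each pair) and the 3 TGF-β1 libraries (grey, right), with the group mean as a bar, grouped by substrate class. Orange points lie above grey ones in 12 of the 13 genes that rose and below them in all 8 that fell, and only SLC30A3 overlaps.

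The balance of calls depends on how the libraries are scaled. TMM factors and DESeq2's own size factors both take most genes as unchanged, which does not hold in a table selected for change. A call lost under them therefore does not show that a gene was unchanged. TMM factors computed from the table moved the median of all 937 genes from -0.97 to -0.37 and that of the 21 carriers from 1.22 to 1.81. Under them 13 carriers still passed as higher and 6 as lower, beside 42.7% and 36.1% of the table. With DESeq2's own size factors 13 passed as higher and 4 as lower, beside 42.7% and 29.7% of the table. No gene changed sign under either scaling. The lower carriers with the smallest changes were those that no longer passed, SLC26A1 and SLCO1B3 under TMM (adjusted p = 0.257 and 0.246, edgeR) and also SLC1A3 and SLC39A10 with the size factors of DESeq2 (adjusted p = 0.160 and 0.0818, DESeq2).

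**Figure D2:**
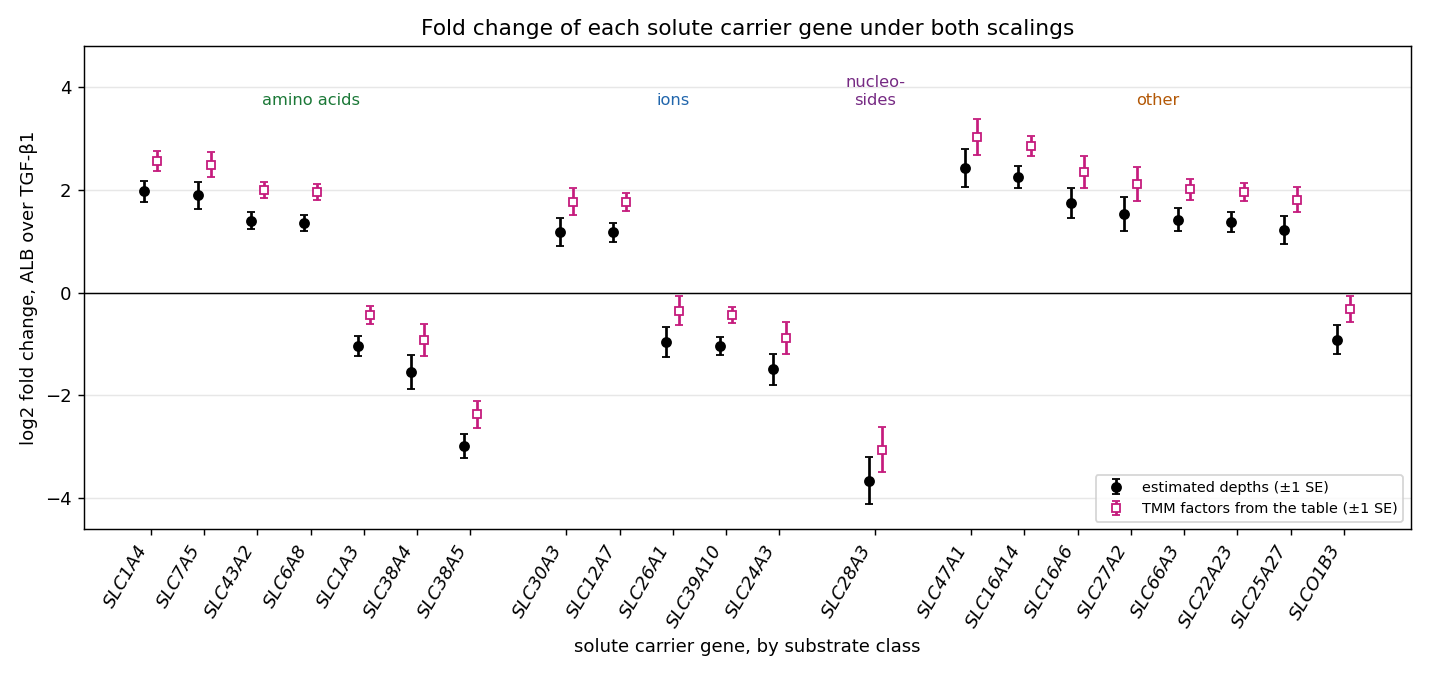
Log2 fold change of ALB over TGF-β1 with 1 standard error for each of the 21 genes, at the estimated depths (filled circles) and with TMM factors from the table (open squares), grouped by substrate class. All genes keep their sign, every square lies above its circle, and the 8 lower genes reach from -3.66 to -0.92 at the estimated depths.

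The amino acid carriers that rose were SLC1A4, SLC7A5, SLC43A2 and SLC6A8. SLC7A5, known as LAT1, is the light chain of an exchanger that brings in leucine and other large neutral amino acids and needs the heavy chain SLC3A2 to reach the surface. Its locus spans chromosome 16, 87830023 to 87869488, minus strand (GENCODE 29 on GRCh38, as for all genes below). SLC7A5 had 62.7, 60.2 and 35.2 FPKM in the ALB libraries, against 14.4, 10.7 and 17.6 FPKM in the TGF-β1 libraries. The third ALB library was the lowest of its group and still exceeded the highest TGF-β1 library by a ratio of 2.00. The log2 fold change of SLC7A5 was 1.89 (SE 0.27, adjusted p = 0.000237, edgeR), and it was the most abundant of the 21 genes in the ALB group. SLC1A4, known as ASCT1, exchanges alanine, serine, cysteine and threonine in the presence of sodium and lies on chromosome 2 from 64988477 to 65023865 on the plus strand. SLC1A4 had 20.2, 22.3 and 13.8 FPKM in the ALB libraries, against 4.65, 4.87 and 4.96 FPKM in the TGF-β1 libraries. The TGF-β1 libraries were nearly equal, and the third ALB library was again the lowest of its group. Its log2 fold change was 1.97 (SE 0.21, adjusted p = 7.64e-05, edgeR), the highest of the amino acid class.

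SLC43A2, known as LAT4, lets branched-chain amino acids, methionine and phenylalanine pass without coupling to an ion. It lies on chromosome 17 from 1569267 to 1628886. SLC43A2 had 6.69, 7.86 and 6.88 FPKM in the ALB libraries, against 2.83, 2.45 and 2.83 FPKM in the TGF-β1 libraries. The lowest ALB library exceeded the highest TGF-β1 library by a ratio of 2.37, and the log2 fold change was 1.40 (SE 0.16, adjusted p = 0.000105, edgeR). SLC6A8 takes up creatine, an amino acid derivative that stores energy as phosphocreatine, together with sodium and chloride. SLC6A8 averaged 8.06 ± 0.590 FPKM in the ALB group and 3.10 ± 0.133 FPKM in the TGF-β1 group (mean ± SD, n = 3 libraries each), a log2 fold change of 1.35 (SE 0.16). Its spread between libraries was among the smallest of the higher genes, with a coefficient of variation of 7.32% in the ALB group and 4.29% in the TGF-β1 group.

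Of 9 amino acid carriers known to be raised by ATF4, the transcription factor that cells use when amino acids run short, the table held 4, and each of these rose with ALB, beside 42.5% of all 937 genes. They are SLC7A5 and SLC1A4 together with SLC3A2 and SLC7A11, which are not counted among the 21 genes. The rest of the list was not in the table and was not analysed here. The list was written with earlier results of these data known, and a part of ATF4 was not tested. SLC3A2 had 234, 274 and 227 FPKM in the ALB libraries, against 103, 102 and 116 FPKM in the TGF-β1 libraries. The FPKM ratio of the light chain SLC7A5 to SLC3A2 within a library was 0.268, 0.220 and 0.155 in ALB, against 0.140, 0.104 and 0.151 in TGF-β1. The groups do not overlap, but the third ALB library and the third TGF-β1 library are nearly equal (two-sided exact permutation test, p = 0.1, the smallest possible). No gene of the 38 aminoacyl-tRNA synthetases, which load amino acids onto tRNA, was in the table, and they were not analysed here.

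The 3 amino acid carriers that fell were SLC38A5, SLC38A4 and SLC1A3. SLC38A5, known as SNAT5, carries glutamine, asparagine, histidine and serine with sodium in exchange for protons, and is located on chromosome X, 48458537 to 48470256, minus strand. SLC38A5 had 1.54, 1.06 and 1.29 FPKM in the ALB libraries, against 9.47, 12.7 and 12.9 FPKM in the TGF-β1 libraries. Every ALB library lay far below the lowest TGF-β1 library, the highest of them at 0.163 of its level. At a log2 change of -2.99 (SE 0.23, adjusted p = 1.73e-05, edgeR), SLC38A5 had the smallest adjusted p of the 21 genes, and it stood at rank 36 among the lower genes of the table by fold change. Its relative SLC38A4, which carries neutral amino acids and is abundant in hepatocytes, averaged 0.386 ± 0.0752 FPKM in ALB and 1.17 ± 0.477 FPKM in TGF-β1, with a log2 fold change of -1.54 (SE 0.33). The third TGF-β1 library was the highest for SLC38A4, at 1.72 FPKM, and without it the log2 fold change was -1.18.

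SLC1A3, known as EAAT1 or GLAST, takes up glutamate and aspartate together with sodium and lies on chromosome 5 from 36606355 to 36688334. SLC1A3 had 2.11, 2.40 and 2.24 FPKM in the ALB libraries, against 4.39, 4.58 and 4.53 FPKM in the TGF-β1 libraries. The groups were tight and well apart, with a log2 fold change of -1.04 (SE 0.19, adjusted p = 0.000798, edgeR). It was -0.44 with TMM factors (adjusted p = 0.0452, edgeR) and -0.33 with the size factors of DESeq2, where it did not pass. SLC1A4 is a member of the same family and rose under each of these scalings. The ratio of both genes within a library does not depend on the scaling of the libraries. The FPKM ratio of SLC1A4 to SLC1A3 was 9.57, 9.27 and 6.15 in the ALB libraries, against 1.06, 1.06 and 1.09 in the TGF-β1 libraries (two-sided exact permutation test, p = 0.1, the smallest possible). In the TGF-β1 group both genes stood at about the same level per length, whereas in the ALB group SLC1A4 was the more abundant in every library. For SLC7A5 over SLC38A5 the ratio was 40.7, 56.7 and 27.4 in ALB, against 1.52, 0.844 and 1.36 in TGF-β1, with the same p. These ratios were chosen after the values were seen. In both, a gene that rose was divided by a gene that fell, and the FPKM groups of each gene were already apart. The separation of both ratios and their p were therefore fixed in advance, and only the levels are described.

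**Figure D3:**
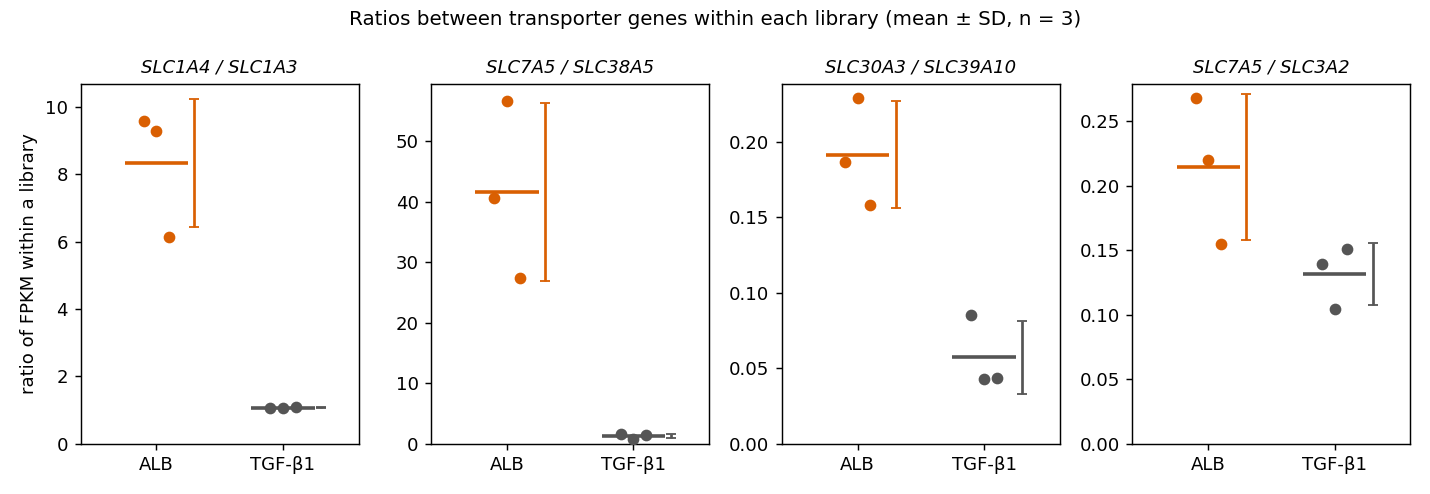
Ratio of the FPKM of one transporter gene to another within each library (linear axes from 0), for ALB (orange, left) and TGF-β1 (grey, right), with the mean as a bar and the SD at its side (n = 3 libraries). The ratio of SLC1A4 to SLC1A3 averages 8.33 in ALB and 1.07 in TGF-β1. For SLC7A5 over SLC3A2 it averages 0.214 in ALB and 0.132 in TGF-β1, and the groups do not overlap.

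Promoters of the carriers were searched for 4 motifs, and stretches around the response element and the E-box are shown as examples. RefSeq promoters (GRCh38.p14, 250 bases before to 50 after each start, 300 in all) were found for 17 of the 21 genes, 24 promoters in total. The motifs, searched on both strands, were the amino acid response element bound by ATF4 with a C/EBP partner (TGATGNAA), the E-box (CACGTG), the AP-1 site (TGANTCA) and the TEAD site (GGAATG). The amino acid response element was in 2 of 24 promoters of the carriers and in 3.62% of all 35116 promoters. It lay 7 bases before the start in SLC1A4, which rose, on the opposite strand, and 220 bases before an upstream start in SLC1A3, which fell. The E-box was in 3 of 24 promoters (7.26% of all), those of SLC7A5, SLC12A7 and SLC38A5. AP-1 sites were in 3 of 24 (7.71% of all), in SLC1A3, SLC26A1 and SLC43A2, and TEAD sites in 7 of 24 (14.0% of all). No matches of different motifs overlapped in these promoters. Below, capitals mark the motif, and each stretch runs 5′ to 3′ along the gene's strand.
SLC1A4, response element, chr2:64989381-64989410, plus strand: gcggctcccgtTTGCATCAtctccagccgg
SLC1A3, response element, chr5:36596357-36596386, plus strand: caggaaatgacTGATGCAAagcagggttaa
SLC7A5, E-box, chr16:87869621-87869648, minus strand: gccggacgacgCACGTGctccgagctgg
SLC12A7, E-box, chr5:1112100-1112127, minus strand: gcaggtgaagtCACGTGgcccgggcggg
SLC38A5, E-box, chrX:48470450-48470477, minus strand: cctgtagcggaCACGTGgcttgcctggg
Each motif thus occurred beside genes of both directions (the E-box in SLC7A5 and SLC12A7, which rose, and in SLC38A5, which fell). A match of letters is a description and does not show that a factor binds there.

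Ion carriers went in both directions. SLC12A7, known as KCC4, moves potassium and chloride out of the cell together and so takes part in volume control. It lies on chromosome 5 from 1050376 to 1112035. SLC12A7 had 31.5, 44.8 and 32.3 FPKM in the ALB libraries, against 18.0, 17.1 and 15.7 FPKM in the TGF-β1 libraries. The second ALB library was the highest, the groups did not overlap, and the log2 fold change was 1.17 (SE 0.19, adjusted p = 0.000399, edgeR). SLC12A7 was the most abundant of the 21 genes in the TGF-β1 group and the next most abundant after SLC7A5 in the ALB group. Among the lower genes, SLC24A3, an exchanger of sodium for calcium and potassium, averaged 0.479 ± 0.161 FPKM in ALB and 1.34 ± 0.177 FPKM in TGF-β1 (log2 fold change -1.49, SE 0.30). SLC26A1, an exchanger of sulfate and oxalate, averaged 0.311 ± 0.0474 FPKM in ALB and 0.634 ± 0.145 FPKM in TGF-β1 (log2 fold change -0.96, SE 0.29). With TMM factors the log2 fold change of SLC26A1 was -0.35 and did not pass.

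The zinc carriers of the table moved apart. SLC39A10, known as ZIP10, brings zinc into the cytoplasm and lies on chromosome 2 from 195575977 to 195737702. SLC39A10 had 6.56, 6.15 and 5.27 FPKM in the ALB libraries, against 10.8, 11.8 and 12.2 FPKM in the TGF-β1 libraries. The groups did not overlap, and with a log2 fold change of -1.04 (SE 0.17, adjusted p = 0.000480, edgeR) SLC39A10 made up 61.7% to 66.1% of the summed counts of the 8 lower genes in the ALB libraries and 52.7% to 53.2% in the TGF-β1 libraries. The log2 fold change of SLC39A10 was -0.44 with TMM factors (adjusted p = 0.0327, edgeR) and -0.34 with the size factors of DESeq2, where it did not pass. SLC30A3, known as ZnT3, loads zinc into vesicles and is best known from synapses. SLC30A3 had 126, 143 and 100 counts in the ALB libraries, against 52, 54 and 50 counts in the TGF-β1 libraries, and its log2 fold change was 1.18 (SE 0.28, adjusted p = 0.00307, edgeR). Its FPKM values overlapped, with 1.23, 1.41 and 0.836 in ALB and 0.919, 0.510 and 0.529 in TGF-β1. The length that counts and FPKM imply together was 1.48 kb in the first TGF-β1 library and 2.80 to 2.97 kb in the other 5 libraries, so the FPKM of that library rests on a shorter transcript length. The FPKM ratio of SLC30A3 to SLC39A10 was 0.187, 0.229 and 0.158 in ALB, against 0.0850, 0.0431 and 0.0435 in TGF-β1. Of 35 listed genes of zinc handling the only other one in the table was MT1X, a metallothionein that binds zinc. It averaged 48.2 ± 11.3 FPKM in ALB and 115 ± 9.37 FPKM in TGF-β1, a log2 fold change of -1.27 (SE 0.21).

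SLC28A3, known as CNT3, was the only nucleoside carrier and the gene with the largest fold change of the 21. It couples the uptake of purine and pyrimidine nucleosides to sodium and lies on chromosome 9 from 84275457 to 84340683. SLC28A3 had 2, 6 and 8 counts in the ALB libraries, against 49, 63 and 81 counts in the TGF-β1 libraries. In FPKM these were 0.0113, 0.0330 and 0.0385 in ALB and 0.257, 0.357 and 0.480 in TGF-β1. Both groups were low and did not overlap, and the log2 fold change was -3.66 (SE 0.46, adjusted p = 0.000133, edgeR), with -3.98 to -3.30 when each library was left out. It lies under 1 FPKM in all libraries, and the size of its change rests on few counts in the ALB group. SLC28A3, SLC47A1 and SLC30A3, all under 1 FPKM on average, were singled out after their values were seen.

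Among carriers of other substrates, the monocarboxylate family was represented by SLC16A14 and SLC16A6. SLC16A14 lies on chromosome 2 from 230034974 to 230068999. SLC16A14 had 5.47, 7.88 and 6.84 FPKM in the ALB libraries, against 1.50, 1.35 and 1.79 FPKM in the TGF-β1 libraries. The lowest ALB library exceeded the highest TGF-β1 library by a ratio of 3.05, and the log2 fold change was 2.25 (SE 0.22, adjusted p = 4.25e-05, edgeR). SLC16A6, known as MCT7 and shown in zebrafish to export ketone bodies from the liver, lies on chromosome 17 from 68267026 to 68291267. SLC16A6 had 2.14, 2.81 and 3.22 FPKM in the ALB libraries, against 0.888, 0.972 and 0.505 FPKM in the TGF-β1 libraries. Here the third ALB library was the highest and the third TGF-β1 library the lowest, the reverse of SLC7A5, and the log2 fold change was 1.75 (SE 0.29, adjusted p = 0.000481, edgeR).

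SLC66A3, a protein of the PQ-loop family (PQLC3 in GENCODE 29), lies on chromosome 2 from 11155198 to 11178874. SLC66A3 had 3.99, 4.05 and 3.33 FPKM in the ALB libraries, against 1.53, 1.33 and 1.49 FPKM in the TGF-β1 libraries. The groups did not overlap, and its log2 fold change was 1.42 (SE 0.23, adjusted p = 0.000451, edgeR). SLC47A1, known as MATE1, exports organic cations in exchange for protons and is known in the kidney and liver for the secretion of metformin. SLC47A1 had 145, 104 and 81 counts in the ALB libraries, against 19, 16 and 24 counts in the TGF-β1 libraries. That is 1.32, 0.902 and 0.591 FPKM in ALB and 0.150, 0.185 and 0.209 FPKM in TGF-β1, and the log2 fold change of 2.42 (SE 0.37, adjusted p = 0.000319, edgeR) was the highest of the 21 genes. Its ALB libraries differed by more than those of most carriers, with a coefficient of variation of 39.0%. SLC27A2, which takes up and activates long-chain fatty acids, averaged 0.967 ± 0.290 FPKM in ALB and 0.329 ± 0.0745 FPKM in TGF-β1 (log2 fold change 1.53, SE 0.34). SLC22A23, of the organic ion carriers, averaged 1.67 ± 0.182 FPKM in ALB and 0.654 ± 0.0375 FPKM in TGF-β1 (log2 fold change 1.37, SE 0.20). SLC25A27, a mitochondrial carrier also called UCP4, averaged 2.86 ± 0.607 FPKM in ALB and 1.08 ± 0.117 FPKM in TGF-β1 (log2 fold change 1.22, SE 0.27).

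The only lower gene of this class was SLCO1B3, known as OATP1B3, which takes up bile acids and many drugs in hepatocytes. It lies on chromosome 12 from 20810702 to 20916911. SLCO1B3 had 0.772, 1.00 and 0.518 FPKM in the ALB libraries, against 1.56, 1.16 and 1.35 FPKM in the TGF-β1 libraries. The second ALB library came close to the second TGF-β1 library, and the log2 fold change was -0.92 (SE 0.28, adjusted p = 0.00951, edgeR), the smallest in size of the 21. With TMM factors it was -0.32 and did not pass. Of the 100-base words in its transcripts 52.1% also occur in an overlapping gene on the same strand (AC011604.2), so its counts are uncertain. Words shared with genes on the opposite strand made up 15.9% in SLC27A2 (ATP8B4), 13.1% in SLC22A23 (PSMG4) and 8.0% in SLC26A1 (IDUA). The strand setting of the counts is not given in the sources used here, so reads of these partners cannot be told apart from their own. In SLC7A5 5.45% of words were shared, including 1.7% with the copy SLC7A5P2, and in SLC6A8 1.84%. The other 15 genes shared at most 4.72%.

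Within the groups some libraries were often the highest or lowest, by count per 1e6 fragments of estimated depth. Among the 13 higher genes, the second ALB library was the highest of its group in 8 and the third the lowest in 9. The third TGF-β1 library was the highest of its group in 7 of the 13 higher genes and in 6 of the 8 lower ones. The same counts were not made over all genes of the table, so this is not shown to be particular to the carriers. Summed over the 13 genes, the level was 684, 770 and 534 counts per 1e6 fragments in the ALB libraries, against 227, 204.5 and 234 in the TGF-β1 libraries. SLC7A5, SLC1A4 and SLC12A7 made up 72.3% to 78.6% of this sum in ALB and 75.1% to 76.9% in TGF-β1. Without them the other 10 genes summed to 147, 167 and 148 in ALB, against 54.4, 50.9 and 53.9 in TGF-β1. The ratio of the group means of these sums was 2.99 with the 3 genes and 2.90 without them. The 8 lower genes summed to 48.5, 43.9 and 39.5 in ALB, against 104, 109 and 115 in TGF-β1. Genes were chosen for these sums by their direction in the same libraries. The direction of each sum was therefore fixed in advance, with or without the 3 genes, and only the levels and shares are described.

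**Figure D4:**
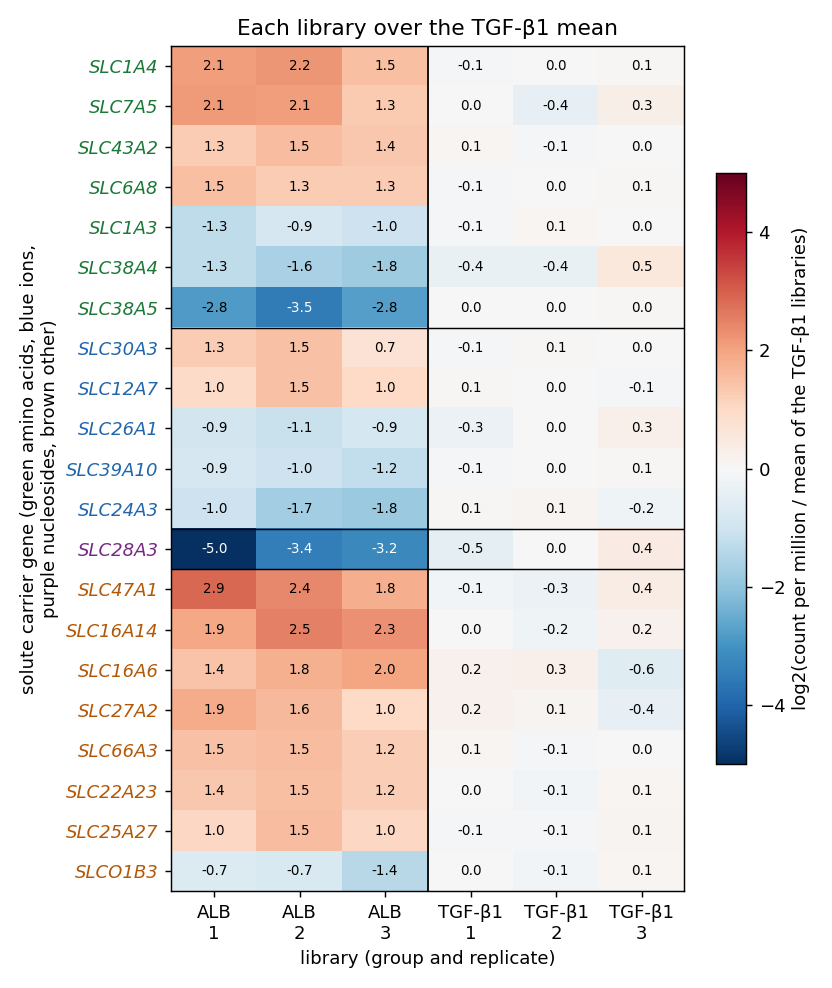
Log2 ratio of each library's depth-scaled count to the mean of the TGF-β1 libraries, for the 21 genes (rows, by substrate class) in the 3 ALB libraries (left) and the 3 TGF-β1 libraries (right). The ALB columns are red for the 13 higher genes and blue for the 8 lower ones in all 3 libraries, and the third ALB library is the palest for SLC7A5, SLC1A4 and SLC47A1.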

How the data were processed

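Poly(A) RNA of 6 LX-2 libraries was sequenced by the authors on an Illumina NovaSeq X Plus, and genes were tested with DESeq2 and kept past limits on fold change and P. The authors deposited, for the 937 kept genes, whole-number counts per library and FPKM values. The submitters' processing notes name CASAVA 1.4 and mouse builds, although the rows carry human symbols. Which human build, annotation, aligner and counting tool were used is not given in the sources used here. Columns were assigned by group initial and number, and within the TGF-β1 group by number alone.

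Sums over kept genes are not depths, so relative depths came from counts divided by FPKM in 565 genes (50 or more counts in each library), and 44 genes with a single GENCODE 29 transcript set the scale. Counts were tested with edgeR's quasi-likelihood test at these depths, without a filter, and each SE is the size of the log2 fold change divided by the root of its F statistic. The members, substrate classes and lists (other transporters, aminoacyl-tRNA synthetases, ATF4-raised carriers, zinc handling, cell markers) were chosen with earlier results of these data known. Values in every library were printed, for each class and direction, for the 3 genes of largest fold change (mean 1 FPKM or more, FPKM of the groups apart), and for the 3 most abundant in each direction. SLC28A3, SLC47A1 and SLC30A3 were printed as exceptions to this rule. Scripts were tested on simulated data. Alternatives were limma on log2(FPKM + 1), + 0.1 and + 0.01, DESeq2, TMM, a minimum mean of 1 FPKM, a replicate block and each library left out. The software was DESeq2 1.42.0, limma 3.58.1 and edgeR 4.0.16 under R 4.3.3, with scipy 1.17.1 for permutation tests.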

Additional observations from a re-analysis of the deposited data

How the results depend on the processing

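The 13 carriers that rose passed with the same sign under each alternative that could be run on them, namely limma at 3 pseudocounts, DESeq2 at the same depths or with its own size factors, TMM factors, the replicate block and each library left out. Of the 8 that fell, 4 passed with DESeq2's own size factors and 6 with TMM factors, and all 8 in the other fits. With a minimum mean of 1 FPKM 7 of the 21 genes were not tested, and the other 14 passed. No fold change reversed, and the call was lost in 6 of 287 pairs of gene and alternative. Leaving out a library moved no log2 fold change by more than 0.36 (SLC28A3 and SLC38A4). The replicate block, with the column number as a term, gave 13 higher and 8 lower. Libraries of the same number did not deviate together (correlations of 0.09, -0.00 and -0.10 across genes for numbers 1, 2 and 3), and only the first ALB library correlated best with its own number, so the numbers were not taken as pairs. Depth limits SLC28A3 most, at 2 to 8 counts in the ALB libraries.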

Other observations

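Other transport proteins of the table went in both directions as well. So did the whole table, with 42.5% of its 937 genes higher and 56.9% lower (42.7% and 36.1% with TMM factors). Whether the families below differ from the table was not tested. Of 90 listed potassium channel genes 10 were in the table, of which 4 were higher and 5 lower with ALB (edgeR's quasi-likelihood test, Benjamini-Hochberg adjustment), and KCNH1 did not pass (adjusted p = 0.0646, edgeR). With TMM factors 4 were higher and 3 lower, and KCNQ5 and KCNN1 no longer passed. KCNK2, a leak channel that responds to stretch, averaged 0.118 ± 0.0271 FPKM in ALB and 1.10 ± 0.345 FPKM in TGF-β1 (mean ± SD, n = 3 libraries each), a log2 fold change of -2.67 (SE 0.30). KCND1, a voltage-gated channel, averaged 4.85 ± 0.963 FPKM in ALB and 1.52 ± 0.196 FPKM in TGF-β1, a log2 fold change of 1.72 (SE 0.21). Of 41 ABC transporters 4 were in the table, 2 higher and 2 lower, of which ABCA4 (-1.51) did not pass with TMM factors. ABCG1, which exports cholesterol to lipoproteins, averaged 1.08 ± 0.390 FPKM in ALB and 0.139 ± 0.0162 FPKM in TGF-β1, and ABCG2, an exporter of drugs and urate, 2.08 ± 0.512 FPKM in ALB and 0.607 ± 0.237 FPKM in TGF-β1. Of 56 genes of ATP-driven ion pumps 3 were in the table, with ATP1B2 and ATP6V1E2 higher (log2 fold changes of 1.57 and 1.32) and ATP6V0A4 lower (-1.16). With TMM factors ATP6V0A4 did not pass. None of 14 listed aquaporins was in the table.

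The length implied by counts and FPKM differed between libraries for some carriers. For SLC38A5 it was 1.84, 1.71 and 2.36 kb in the ALB libraries and 2.13, 1.59 and 1.64 kb in the TGF-β1 libraries, whereas for SLC7A5 it was 4.53 to 4.54 kb in all 6. FPKM values of SLC38A5 therefore carry a difference in assigned transcript length of up to 1.49-fold beside the difference in counts, which were 102, 65 and 126 in ALB and 770, 715 and 714 in TGF-β1.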
